A study of Rattus norvegicus with 24 samples.

Results

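Gene expression was compared, in the central amygdaloid nucleus (CEA), between rats that received electroacupuncture around surgery and normal controls. The members of the comparison were the 6 mRNA libraries whose titles name the CEA with either treatment, taken from 24 libraries of 2 brain regions and 4 treatments. All rats were male Sprague-Dawley animals, 7 weeks old at purchase. The 3 normal control (NC) libraries came from rats that were neither operated nor needled but were held in a restrainer as long as the others. The 3 hepatectomy + electroacupuncture (EA) libraries came from rats in which part of the left liver lobe was removed under isoflurane, with current passed through needles at the Zusanli and Sanyinjiao points of the awake, restrained animal on the day before and directly after the operation. Brain tissue was collected on the day following the final session. Surgery, anaesthesia, needling and current all differed between EA and NC, so their contributions cannot be told apart in this pair. Hepatectomy alone (HT) and hepatectomy with needles but no current (SEA) are therefore given beside the EA values.

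The CEA is a largely GABAergic output nucleus of the amygdala. It is known for peptide-releasing neurons that relay pain, fear and stress signals to the hypothalamus and brainstem. Immediate early genes are switched on within minutes of synaptic activity and their mRNA is short-lived, so they are widely used as markers of recent neuronal activity. Glucocorticoids, the adrenal steroids released under stress, act through nuclear receptors that raise a separate group of target genes in neurons, glia and vessels.

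The 6 libraries held between 13838691 and 18607032 counts. Values are given as CPM, that is counts scaled to a common library size with trimmed mean of M-values (TMM) factors. Libraries of the same group correlated no better across genes (median r 0.974) than libraries of different groups (median r 0.975), as a description over pairs of libraries. Markers of inhibitory CEA neurons were present in all 6, with Gad1, a GABA-synthesising enzyme, at 371 to 525 CPM, Gad2, its partner enzyme, at 400.5 to 625 CPM and Penk, the enkephalin precursor, at 474 to 1162 CPM. Prkcd, which marks a class of CEA neurons but also thalamic relay neurons, ran from 54.1 to 552 CPM within NC alone. Choroid plexus RNA was conspicuous in NC replicate 2, where Ttr, the plexus transthyretin gene, reached 995 CPM against 12.1 and 9.55 CPM in NC replicates 1 and 3. In EA replicate 2, mitochondrial genes took 3.80% of counts, against 11.5% to 13.4% in the other 5 libraries. For its co-expression network the study set aside a CEA EA library because of very large differences, without saying which. All EA libraries were kept here. The hypothalamic hormones were low but measurable, with Oxt (oxytocin) at 7.56 to 77.2 CPM, and the hypothalamic regulators Sim1 and Otp did not exceed 1.14 CPM.

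Few genes separated EA from NC once all genes were considered. Of 16505 genes tested with the quasi-likelihood test of edgeR, 1 had a Benjamini-Hochberg adjusted p under 0.05, or 0.00606% of those tested. Without adjustment, 729 genes (4.42%) had a p under 0.05, where 825 would be expected if no gene differed, with 396 higher in EA (2.40%) and 333 lower (2.02%). All EA libraries lay above all NC libraries for 800 genes (4.85%) and below them for 887 (5.37%), together 10.2% of genes. DESeq2, the tool of the study, placed 36 genes under the same adjusted threshold, 18 in each direction, and 671 genes under the unadjusted one. Below, a gene is said to have risen or fallen only where the edgeR adjusted p is under 0.05. All others are described by their values.

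The immediate early genes were the group with the most members lower in EA. Of 23 listed genes, all of which were tested, 10 were lower and 0 were higher at an unadjusted p under 0.05, where 2.02% of all genes were lower. For 9 genes every EA library lay under every NC library, against 5.37% of all genes. None of the 23 passed the adjusted threshold in edgeR, and 8 passed it in DESeq2, namely Egr1, Egr2, Egr4, Nr4a3, Npas4, Junb, Fos and Arc. The median log2 fold change of the list was -0.53 (-0.81 without EA replicate 2), against 0.01 over all genes, and 18 of 23 values were negative. With any single library left out, 9 to 13 members were lower at an unadjusted p under 0.05, and 0 were higher except without EA replicate 1, where 2 were.

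Because these genes are transcribed through short regulatory sequences close to their start, the windows of 3 non-overlapping members are shown first, from 250 bases upstream to 50 bases downstream of the start (RefSeq, assembly GRCr8). Of the 23 genes, 18 had a window in the table. Capitals mark, in either orientation, the core TGACG of the cyclic AMP response element, to which CREB binds, and the CArG box, to which serum response factor binds. Both strands were searched, and CGTCA is the core read on the other strand. In the Egr2 window at chr20:21054392-21054691 (minus strand), a CArG box lay a few bases from a TGACG core. The Egr4 window at chr4:119607768-119608067 (minus strand) held 2 cores. The Junb window at chr19:40080876-40081175 (plus strand) held 1 core. The window of Npas4, the member with the largest fold, held 0 cores and 0 CArG boxes and is not shown.
Egr2: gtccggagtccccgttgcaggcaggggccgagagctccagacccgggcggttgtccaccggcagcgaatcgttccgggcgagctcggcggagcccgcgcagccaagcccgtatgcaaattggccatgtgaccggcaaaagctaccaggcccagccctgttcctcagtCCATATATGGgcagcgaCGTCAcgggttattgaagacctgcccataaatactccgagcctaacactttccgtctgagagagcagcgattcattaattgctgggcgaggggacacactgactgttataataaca
Egr4: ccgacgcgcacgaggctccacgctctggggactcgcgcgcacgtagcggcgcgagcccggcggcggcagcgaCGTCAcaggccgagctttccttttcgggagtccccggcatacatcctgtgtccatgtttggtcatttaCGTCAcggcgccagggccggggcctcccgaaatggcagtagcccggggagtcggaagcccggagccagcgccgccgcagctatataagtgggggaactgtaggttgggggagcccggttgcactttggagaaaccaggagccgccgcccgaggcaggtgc
Junb: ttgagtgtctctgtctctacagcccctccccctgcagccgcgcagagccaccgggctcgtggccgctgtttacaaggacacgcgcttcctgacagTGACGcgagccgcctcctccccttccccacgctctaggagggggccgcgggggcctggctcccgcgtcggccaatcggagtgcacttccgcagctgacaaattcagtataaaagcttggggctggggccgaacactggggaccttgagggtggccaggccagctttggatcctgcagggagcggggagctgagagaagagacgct
Of the 18 genes with a window, 11 held the TGACG core in at least 1 window, 4 held the full element TGACGTCA, which contains the core, and 2 held a CArG box. Among all 33469 windows of the same length, 21.2% held the core, 1.83% the full element and 1.64% a CArG box. Bdnf contributed 6 windows, so a count over genes and a share of windows are not on the same footing. Of the 9 non-overlapping genes, 6 had a window, and 4 of these held the core, 2 a CArG box and 0 the full element.

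Among the early growth response genes, which encode zinc finger transcription factors, Egr1 (ENSRNOG00000019422) stood at 140.3, 131 and 129.5 CPM in NC replicates 1 to 3 and at 60.2, 51.6 and 71.9 CPM in EA replicates 1 to 3. The groups did not overlap and the lowest control was well above the highest EA library. The log2 fold change was -1.11 ± 0.13 (SE), with an edgeR adjusted p of 0.215. Egr2 (ENSRNOG00000000640) was at 9.36, 21.5 and 15.0 CPM in NC and at 2.02, 3.08 and 3.57 CPM in EA. All EA libraries were far below the lowest control, a log2 fold change of -2.38 ± 0.35 (edgeR adjusted p = 0.380). Egr4 was at 29.0, 40.1 and 31.7 CPM in NC and at 15.6, 11.04 and 17.1 CPM in EA, again with no overlap (log2 fold change -1.19 ± 0.20, edgeR adjusted p = 0.603). Egr3 was closer, at 65.5, 46.0 and 58.0 CPM in NC and 43.3, 36.5 and 47.0 CPM in EA, where EA replicate 3 exceeded NC replicate 2.

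The nuclear receptor Nr4a3 (ENSRNOG00000005964) had the tightest groups, with 10.5, 11.4 and 11.4 CPM in NC and 4.47, 4.75 and 4.71 CPM in EA. The gap between groups was many times the spread within either, and the log2 fold change was -1.24 ± 0.16 (edgeR adjusted p = 0.215). Npas4, an activity-dependent transcription factor restricted to neurons, was at 3.24, 4.499 and 3.58 CPM in NC and at 1.22, 0.268 and 0.397 CPM in EA. It had the largest fold among the immediate early genes, a log2 fold change of -2.58 ± 0.51 (edgeR adjusted p = 0.798), from few counts. Of the relatives of Nr4a3, Nr4a1 and Nr4a2 overlapped between groups. Nr4a2 was at 31.4 CPM in NC replicate 3 and between 4.03 and 6.35 CPM in the other 5 libraries.

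Fos, a subunit of the AP-1 transcription factor, was at 10.9, 22.8 and 18.8 CPM in NC and at 3.82, 7.42 and 7.09 CPM in EA. The groups did not overlap, with a log2 fold change of -1.50 ± 0.34 (edgeR adjusted p = 0.960). Its partner Junb was at 56.5, 83.9 and 70.1 CPM in NC and at 43.2, 34.1 and 36.6 CPM in EA (log2 fold change -0.87 ± 0.17). Arc, a cytoskeletal protein of activated synapses, was at 66.5, 109.5 and 97.1 CPM in NC and at 43.8, 39.1 and 54.0 CPM in EA (log2 fold change -0.98 ± 0.21). Both were non-overlapping, as was Ier5, at 32.5 to 45.8 CPM in NC and 24.6 to 29.6 CPM in EA. The plot of immediate early genes shows all 9 in the 4 treatments.

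**Figure D1:**
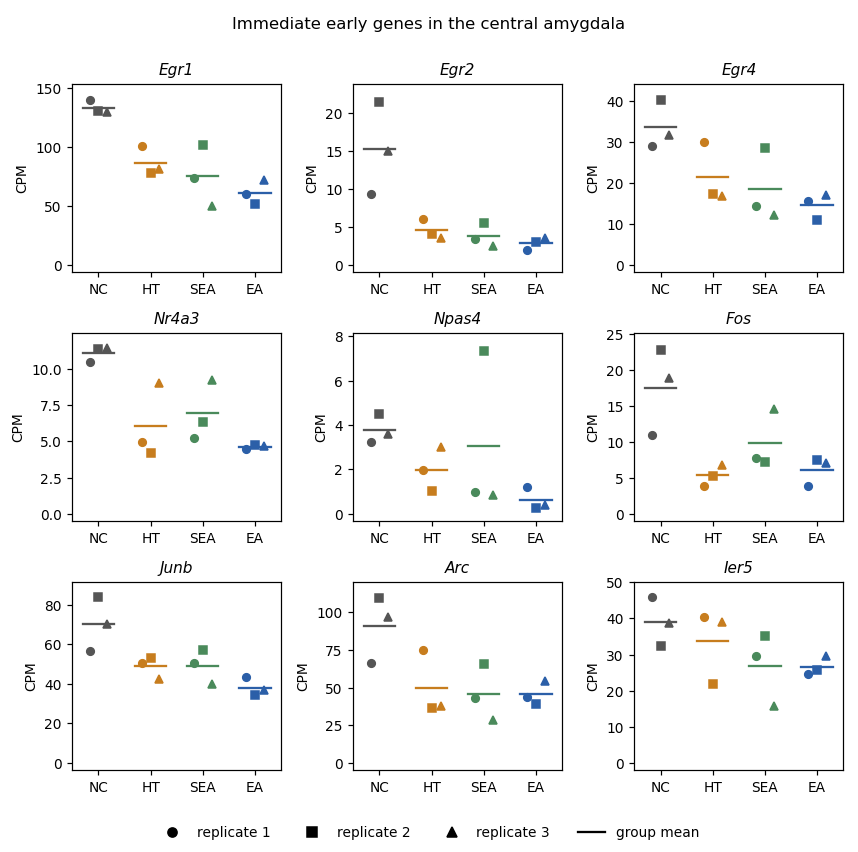
CPM (vertical axes, linear, each with its own range) of 9 immediate early genes in the 12 CEA libraries, by treatment (NC, HT, SEA, EA). Points are libraries, with the symbol giving the replicate, and lines are group means. In every panel the 3 EA points lie below the 3 NC points without overlap, whereas single HT and SEA libraries reach the NC range in some panels, as for Npas4 in SEA replicate 2 (7.34 CPM).

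Not all members followed this pattern. Jun, Ier2 and Btg2 were highest in EA replicate 2, at 174, 20.0 and 45.9 CPM, and their log2 fold changes were 0.43, 0.44 and 0.48. Dusp1, a phosphatase gene induced by both activity and glucocorticoids, spanned 36.2 to 120.2 CPM in NC and 32.1 to 116 CPM in EA, so that the groups covered the same range. EA replicate 1 was the lowest of the 6 libraries for 14 of the 23 genes and EA replicate 2 for 7, while EA replicate 2 was also the highest for 5.

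Dusp14, a protein phosphatase, was at 13.7, 15.6 and 14.4 CPM in NC and at 8.35, 8.56 and 8.62 CPM in EA. The EA values were nearly identical and clear of all controls, with a log2 fold change of -0.76 ± 0.14 (edgeR adjusted p = 0.798). Gpr3, a constitutively active receptor that raises cyclic AMP, was at 7.02, 10.004 and 9.35 CPM in NC and at 3.60, 4.28 and 4.26 CPM in EA (log2 fold change -1.10 ± 0.21). The chaperone gene Dnajb5 was at 112, 104 and 119 CPM in NC and at 72.2, 76.2 and 82.6 CPM in EA, a log2 fold change of -0.52 ± 0.10 (edgeR adjusted p = 0.798).

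Mir132, a microRNA locus known to be under CREB control, had 43, 48 and 33 counts in NC and 15, 4 and 16 counts in EA, a log2 fold change of -1.73 ± 0.45 (edgeR adjusted p = 0.960). Its levels did not overlap between groups (2.19 to 2.84 against 0.268 to 1.08 CPM). These reads came from mRNA libraries and fall on the hairpin locus, so they do not measure the mature microRNAs. The mature arms from RefSeq (GRCr8) are shown because the seed, bases 2 to 8 in capitals, sets which mRNAs each arm pairs with, and the 2 arms share no seed.
rno-miR-132-5p: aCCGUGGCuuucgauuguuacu
rno-miR-132-3p: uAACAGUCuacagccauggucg

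The same genes were then read in the other treatments of the CEA. These comparisons share the NC libraries, so their values are set side by side only. Against NC, HT had 8 of the 23 immediate early genes lower at an unadjusted p under 0.05 (1.41% of all genes) with a list median of -0.46, and SEA had 7 (1.33% of all genes) with a median of -0.52. Egr1 was at 100.6, 77.9 and 81.5 CPM in HT and at 73.6, 102 and 49.8 CPM in SEA, all below the 129.5 CPM of the lowest control. Fos was at 3.92, 5.25 and 6.85 CPM in HT, which is within the EA range. Npas4 was less uniform, with 1.96, 1.02 and 3.005 CPM in HT and 0.989, 7.34 and 0.867 CPM in SEA. With EA tested directly against HT, no gene passed the edgeR adjusted threshold and 526 of 16479 had an unadjusted p under 0.05 (3.19%, 824 expected). Against SEA no gene passed and 324 of 16322 did (1.99%, 816 expected). In those 2 tests the Egr1 log2 fold change was -0.51 (unadjusted p = 0.021) and -0.28 (unadjusted p = 0.303), and that of Dusp14 was -0.47 (unadjusted p = 0.038) and -0.48 (unadjusted p = 0.008).

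Whether the difference was particular to the CEA was tested against the paraventricular nucleus of the hypothalamus (PVN), where other libraries gave the same contrast. The test treats the libraries of both regions as independent. The labels do not say whether they share animals, and some levels tracked between regions, with LOC103690108 in SEA at 0, 0.251 and 46.1 CPM in the CEA and 0, 0.0647 and 69.4 CPM in the PVN. The summed glucocorticoid-induced genes in NC were at 709, 1122 and 937 CPM in the CEA and 417, 678 and 568 CPM in the PVN. In EA they were at 1271, 1273 and 793 CPM in the CEA and 786, 497 and 783 CPM in the PVN, and in HT at 701, 2124 and 791 CPM and 429, 462 and 1248 CPM. In EA and HT the levels ran alike with PVN replicates 2 and 3 exchanged, which is also how the columns neighbour each other in the table. No pairing by animal entered the test, so its p-values hold only if the regions are independent. In the PVN, 8 of the 23 immediate early genes were lower in EA than NC at an unadjusted p under 0.05, where 5.41% of all genes were, and the list median was -0.17. Fos was at 23.6, 29.7 and 30.8 CPM in PVN NC and at 9.46, 12.7 and 13.9 CPM in PVN EA, a log2 fold change of -1.21 against -1.50 in the CEA (interaction unadjusted p = 0.471). Junb gave -0.91 in the PVN and -0.87 in the CEA (interaction unadjusted p = 0.897). Egr2 was the member that differed most, with a log2 fold change of 0.20 in the PVN, where no EA or NC library exceeded 1.33 CPM, and -2.38 in the CEA (interaction unadjusted p = 0.000729, adjusted p = 0.742). Homer1, a scaffold of metabotropic glutamate receptors, was the only other member with an interaction p under 0.05 (0.018), at 0.44 in the PVN and -0.52 in the CEA. Over all genes, 0 of 17432 passed the adjusted threshold for the interaction by edgeR or by DESeq2. By edgeR 1125 had an unadjusted p under 0.05 (6.45%, 872 expected), and by DESeq2 1150. These counts depended on single libraries, since leaving out PVN NC replicate 2 gave 792 genes past the edgeR adjusted threshold, and leaving out the first NC library of the CEA gave 8.

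**Figure D2:**
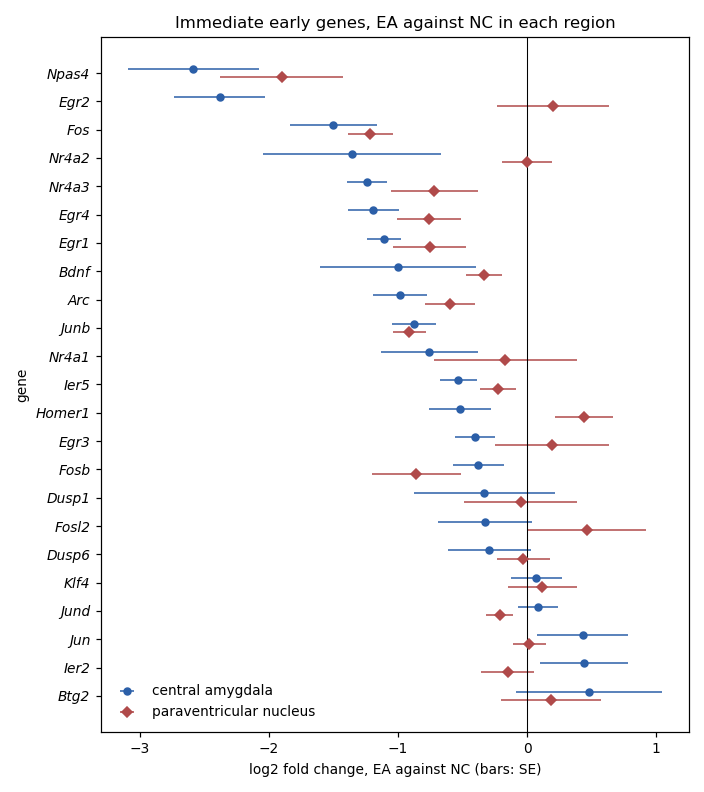
Log2 fold change of EA against NC (horizontal axis, with 0 as a vertical line) for the 23 immediate early genes, sorted by the CEA value, in the CEA (circles) and the PVN (diamonds). Bars are the SE from 3 libraries a group. Npas4, Fos and Junb lie left of 0 in both regions, and Egr2 lies left of 0 in the CEA alone.

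Markers of tissue beside the CEA varied among the libraries, and some moved with the groups. Immediate early genes are abundant in cortical and basolateral excitatory neurons. For 15 listed markers of these cells the summed level was 367, 521 and 832 CPM in NC and 291, 435 and 317 CPM in EA. Of 13 tested, 2 were lower at an unadjusted p under 0.05 (Neurod1 and Neurod6) and 0 higher, where 2.02% and 2.40% of all genes were, and the median log2 fold change was -0.79. NC replicate 3 was highest for 11 of the 13, including Slc17a7, a vesicular glutamate transporter, at 302 CPM there, 26.0 and 177 CPM in the other controls and 21.6, 102 and 35.2 CPM in EA. Emx1, a defining cortical marker, did not exceed 1.59 CPM. With a library left out, the number of these markers that were lower ran from 1 (without NC replicate 3 or EA replicate 1) to 7 of 15 (without NC replicate 1), with 5 of 13 without NC replicate 2, and their median from -1.35 (without EA replicate 3) to -0.16 (without NC replicate 3). DESeq2 placed 5 of 13 under the unadjusted threshold. Without NC replicate 3 the median of the immediate early genes was -0.43, with 9 of the 23 immediate early genes lower at an unadjusted p under 0.05 (1.13% of all genes in that fit). NC replicate 1, whose cortical sum of 367 CPM lay inside the EA range, was the highest of the controls for Egr1 and Ier5 and the lowest of them for the other 7 of the 9 non-overlapping immediate early genes. The part of these neurons in the immediate early gene values was not tested. In bulk tissue, fewer cells of a type and less RNA per cell cannot be told apart.

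Striatal markers, which mark neurons lateral to the CEA and are shared in part with the CEA itself, had negative log2 fold changes for 13 of 13 members, with a median of -0.41, or -0.20 without NC replicate 1 and -0.21 without EA replicate 2. Pde10a, a striatal phosphodiesterase, had a log2 fold change of -0.60 ± 0.25. The sums were 9078, 5857 and 6841 CPM in NC and 5910, 3869 and 6619 CPM in EA, with NC replicate 1 highest and EA replicate 2 the lowest for 12 of 13. Thalamic markers summed to 298, 1217 and 1367 CPM in NC and 354, 1342 and 597 CPM in EA. Choroid plexus markers summed to 188, 1498 and 205 CPM in NC and 594, 237 and 191 CPM in EA, and Otx2, a defining factor of the plexus, had 0 CPM in all 6. Hypothalamic markers summed to 209, 123 and 72.6 CPM in NC and 159.9, 200.3 and 210.3 CPM in EA. The part of these differences in the other results was not tested beyond leaving out each library.

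**Figure D3:**
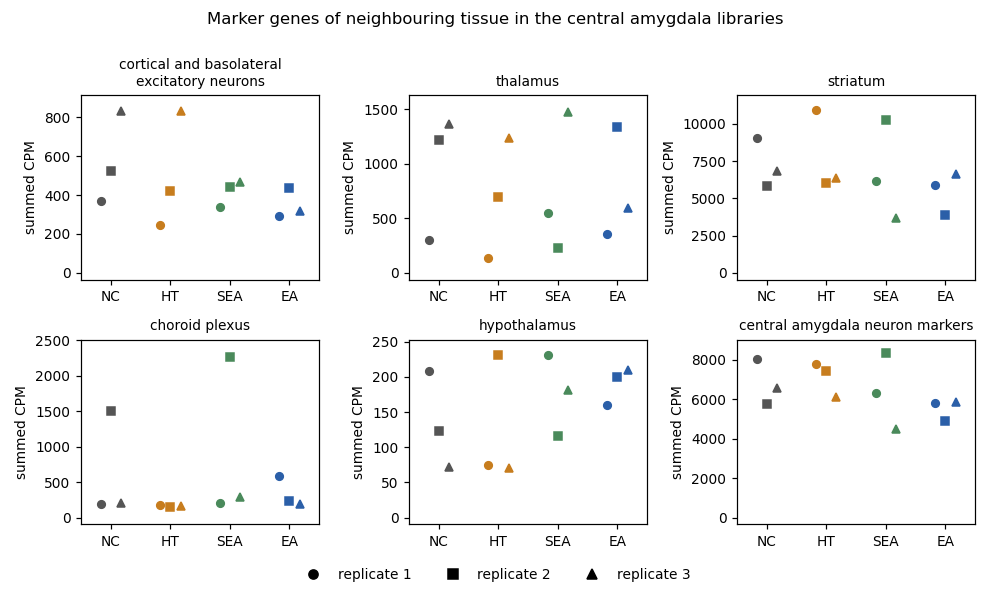
Summed CPM (vertical axes, linear) of 6 marker lists in the 12 CEA libraries by treatment, with the symbol giving the replicate. The cortical sum is highest in NC replicate 3 and HT replicate 3, and the choroid plexus sum in NC replicate 2 and SEA replicate 2, so these sums vary between replicates of the same treatment.

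The gene that rose was LOC103690108 (ENSRNOG00000047706, chromosome 20, 3791407 to 3794027 in the coordinates of the table), which encodes a class I histocompatibility antigen chain. Class I molecules present peptides to T cells and belong to a family of near-identical, highly variable copies. The 3 NC libraries had 0 counts, which allows up to 3 counts or 0.178 to 0.199 CPM, and the EA libraries had 26.0, 20.1 and 27.3 CPM. EA was at least 132-fold higher than the mean of these limits (edgeR adjusted p = 0.00461). It was at 25.9, 57.4 and 28.8 CPM in HT, all far above NC, and at 0, 0.251 and 46.1 CPM in SEA, where the libraries fell on both sides. Whether the level follows treatment or differs between individual rats was not tested. In the PVN it was at 0, 0.165 and 0 CPM in NC and at 35.6, 32.4 and 34.6 CPM in EA. The regions may share rats, so the PVN values may be the same animals read again. The edgeR adjusted p was 0.0840 without EA replicate 1 and 0.999 when all CEA groups shared a single fit, and it was under 0.05 in 10 of 12 alternatives. How reads of such copies were divided is not given in the sources used here, so their levels are uncertain.

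LOC100364500 had 140 counts in EA and 5 in NC, a ratio of 29.3 (95% exact interval 12.3 to 91.7 for counting error only), with an edgeR adjusted p of 0.0806. Of 19 RT1 histocompatibility genes tested, 3 were higher (RT1-CE10, RT1-DOb and RT1-CE7) and 3 lower (RT1-T24-4, RT1-T24-3 and RT1-S3) at an unadjusted p under 0.05, where 2.40% and 2.02% of all genes were. The median log2 fold change of the 19 was -0.13, and 0.11 without NC replicate 2. RT1-CE10 was at 0.29998, 1.01 and 0.265 CPM in NC and 2.59, 1.61 and 3.18 CPM in EA. RT1-T24-4 went the other way, at 20.2, 16.4 and 21.7 CPM in NC and 7.71, 2.81 and 11.8 CPM in EA. Neither pair of groups overlapped.

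Leaving aside genes with only a locus name, such as those starting with LOC, Heph had the smallest p on the higher side among separated genes of at least 1 CPM. Heph encodes hephaestin, a copper-dependent ferroxidase that helps iron leave cells. It was at 19.4, 16.1 and 14.4 CPM in NC and at 46.1, 39.7 and 32.9 CPM in EA. All EA libraries were above all controls, with a log2 fold change of 1.27 ± 0.17 (edgeR adjusted p = 0.240, DESeq2 adjusted p = 8.36e-07). HT stood at 38.9, 38.2 and 30.5 CPM and SEA at 30.3, 27.9 and 20.8 CPM, both above all controls. EA against SEA gave a log2 fold change of 0.60 (edgeR unadjusted p = 0.012). The PVN gave nearly the same contrast, with 13.9, 16.0 and 14.9 CPM in NC and 43.4, 30.9 and 43.5 CPM in EA (interaction unadjusted p = 0.539).

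Lrg1, a secreted glycoprotein made by vessels in inflammation, was at 1.32, 2.78 and 2.65 CPM in NC and 16.1, 9.43 and 6.07 CPM in EA (log2 fold change 2.24 ± 0.43, edgeR adjusted p = 0.798). Wfdc1, a secreted protease inhibitor, was at 29.0, 27.2 and 25.3 CPM in NC and 45.4, 40.6 and 45.0 CPM in EA. Prex2, an activator of the GTPase Rac, was at 202, 198 and 198 CPM in NC and 317, 294 and 271 CPM in EA. None of these groups overlapped. Slc27a1, described after these, and Epb41l1, Impad1, Dnah9, Fam83d and Ccdc152 completed the 10 separated genes with the smallest p on this side. The last 5 of these had log2 fold changes of 1.63, 1.99, 0.92, 0.83 and 0.89. In the PVN, Epb41l1 gave -0.89 (interaction unadjusted p = 0.0026) and Dnah9 gave 0.01 (interaction unadjusted p = 0.007). Prex2, Wfdc1 and Epb41l1 had log2 fold changes of -0.13, 0.07 and 0.00 in SEA against NC, whereas Lrg1 had 1.18 there.

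Scd, the desaturase that makes monounsaturated fatty acids, was at 30.1, 44.5 and 41.5 CPM in NC and at 10.1, 14.7 and 16.6 CPM in EA. Every EA library was below the lowest control, with a log2 fold change of -1.47 ± 0.22 (edgeR adjusted p = 0.380, DESeq2 adjusted p = 3.89e-06). Thrsp, a regulator of fatty acid synthesis, was at 22.4, 27.2 and 36.3 CPM in NC and 11.2, 10.03 and 14.0 CPM in EA (log2 fold change -1.27 ± 0.21). Slc27a1, a fatty acid transporter, was higher, at 117, 121 and 116 CPM in NC and 178, 162 and 157 CPM in EA, without overlap (log2 fold change 0.51 ± 0.10, edgeR adjusted p = 0.830). Elovl6, a fatty acid elongase, rested on a single library, with 5.98 CPM in EA replicate 1 and 0.180 to 1.07 CPM in the other 5. Scd had log2 fold changes of -1.36 in HT, -0.96 in SEA and -1.06 in the PVN, and Thrsp of -0.84, -1.08 and -1.21.

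**Figure D4:**
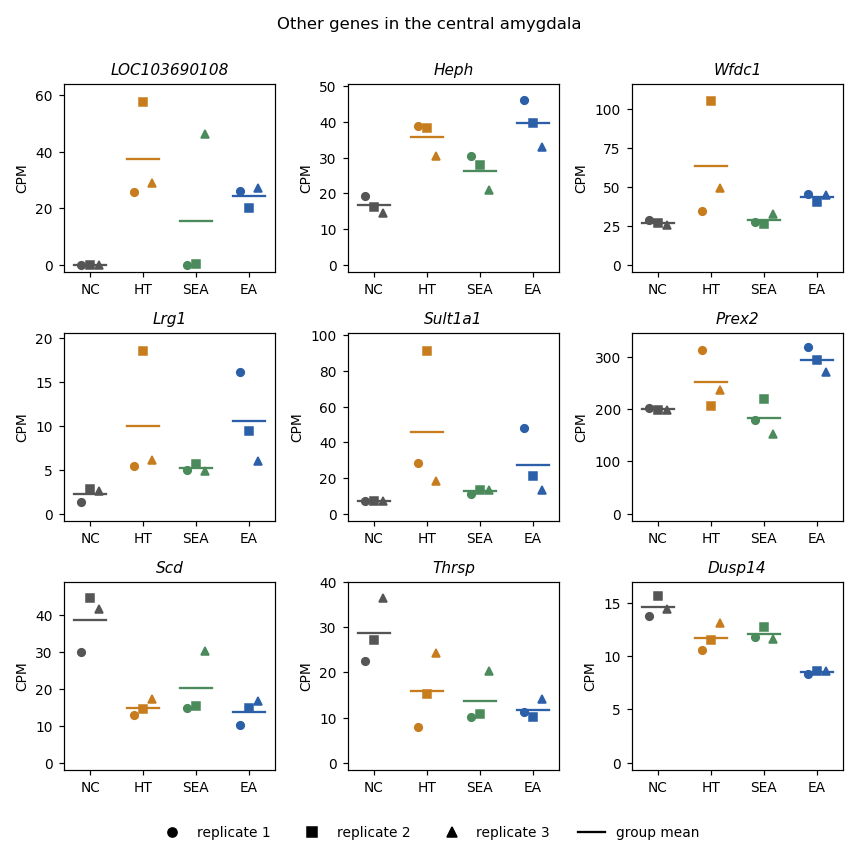
CPM (vertical axes, linear, each with its own range) of 9 further genes in the 12 CEA libraries by treatment. Points are libraries, with the symbol giving the replicate, and lines are group means. EA points lie above NC for LOC103690108, Heph, Wfdc1, Lrg1, Sult1a1 and Prex2 and below NC for Scd, Thrsp and Dusp14.

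Other genes with the largest folds on the lower side were lightly covered. Tnnc2, a muscle troponin, was at 9.96, 10.004 and 11.6 CPM in NC and 4.18, 3.08 and 5.73 CPM in EA. Unc45b, a myosin chaperone, was at 2.70, 1.78 and 1.86 CPM against 0.288, 0.201 and 0.965 CPM. Nusap1, a spindle protein of dividing cells, was at 1.08, 2.66 and 1.39 CPM against 0.360, 0.401 and 0.624 CPM. All 3 were without overlap, as was Slc39a8, a zinc and manganese transporter, at 7.14 to 8.29 CPM in NC and 3.67 to 4.35 CPM in EA (log2 fold change -0.94 ± 0.18).

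Genes induced by glucocorticoids had mostly positive log2 fold changes, with EA libraries that differed widely. Their summed level was 709, 1122 and 937 CPM in NC and 1271, 1273 and 793 CPM in EA, so that EA replicate 3 lay below 2 of the controls. Of 22 tested, 5 were higher and 0 lower at an unadjusted p under 0.05, where 2.40% of all genes were higher. The list median was 0.46, and 18 values were positive. Every EA library lay above every control for 1 member, Sult1a1, and below for 1, Klf9, shares near those of all genes (4.85% and 5.37%). Sult1a1, a sulfotransferase, was at 7.38, 7.34 and 7.10 CPM in NC and 48.3, 21.3 and 13.2 CPM in EA (log2 fold change 1.94 ± 0.44, edgeR adjusted p = 0.960, DESeq2 adjusted p = 0.00184), or 1.24 without EA replicate 1. The EA libraries differed among themselves far more than the controls did. Zbtb16, a transcription factor, was at 5.46, 3.91 and 6.90 CPM in NC and 27.4, 5.35 and 8.74 CPM in EA, and Mt2A, a metallothionein, at 26.1, 29.8 and 36.8 CPM in NC and 103.8, 45.5 and 34.5 CPM in EA. Both overlapped with NC, as did Hif3a and Map3k6, the other 2 of the 5. EA replicate 1 was the highest of the 6 libraries for 12 of the 22 genes. Without it, or without NC replicate 1, there was 1 higher gene at an unadjusted p under 0.05, where 1.36% and 3.54% of all genes were, and without EA replicate 3 there were 8 (2.59% of all genes). The list median was 0.27 without EA replicate 1, 0.26 without NC replicate 1 and 0.74 without NC replicate 2.

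Fkbp5, the receptor co-chaperone often used to read glucocorticoid action, was at 82.2, 53.5 and 62.9 CPM in NC and 118, 61.0 and 79.9 CPM in EA, with overlapping groups (log2 fold change 0.40 ± 0.25, edgeR adjusted p = 0.960). The value was 0.09 without EA replicate 1 and 0.59 without EA replicate 2. The list median was 0.73 in HT, 0.33 in SEA and 0.48 in the PVN. In the PVN 8 of the 22 were higher at an unadjusted p under 0.05, where 4.71% of all genes were. The palindromic glucocorticoid response element was in 0 of the 20 genes of the list that had a promoter window and in 0.0388% of all windows, so its letters were rare in any window of this size.

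Among the neuropeptides of the CEA, Crh, which encodes corticotropin-releasing hormone, was low, at 2.10, 0.710 and 1.13 CPM in NC and 2.16, 2.74 and 2.78 CPM in EA. The groups were separated only narrowly, with a log2 fold change of 0.98 ± 0.40 (edgeR adjusted p = 0.960), or 1.49 without NC replicate 1. In the PVN the value was -0.20 (interaction unadjusted p = 0.020). Hypothalamic markers had a median log2 fold change of 0.13, but of -0.11 without NC replicate 3, which was the lowest library for 8 of 9 tested. Oxt was at 66.8, 24.2 and 7.56 CPM in NC and 68.2, 75.05 and 77.2 CPM in EA. The part of these markers in the Crh result was not tested. Sst, which encodes somatostatin, was at 208, 113 and 161 CPM in NC and 177, 146 and 173 CPM in EA, a log2 fold change of 0.06 ± 0.21. Prkcd gave -0.56 ± 0.83, from -1.46 without EA replicate 2 to -0.16 without NC replicate 3, and was highest in the 3 libraries with the highest thalamic sums. Over 29 tested CEA neuron markers the median log2 fold change was -0.02, or -0.13 without NC replicate 2 and 0.12 without NC replicate 1. Hsd11b1, which regenerates active glucocorticoid within cells, was at 36.7, 43.2 and 48.4 CPM in NC and 60.0, 48.6 and 59.5 CPM in EA, just without overlap (log2 fold change 0.40 ± 0.14).

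Of 13 opioid genes 0 were without overlap, against 10.2% of all genes. Their summed level did not overlap, at 1869 to 2408 CPM in NC and 1630 to 1647 CPM in EA. Penk was at 1162, 683 and 768 CPM in NC and 716, 474 and 705 CPM in EA (log2 fold change -0.45 ± 0.24, or -0.19 without NC replicate 1). Oprm1, the mu receptor, was at 4.56, 11.2 and 10.9 CPM in NC and 5.98, 9.90 and 4.77 CPM in EA, and its SE of 0.40 exceeded its log2 fold change of -0.36 in size, which was -0.72 without EA replicate 2 and -0.15 without EA replicate 3. Oprd1, the delta receptor, was at 6.66, 3.67 and 7.16 CPM in NC and 3.60, 3.41 and 3.74 CPM in EA (log2 fold change -0.68 ± 0.28, edgeR adjusted p = 0.960). It was the 1 member of 13 at an unadjusted p under 0.05, where 2.02% of all genes were lower, and the list median was -0.26, or -0.05 without NC replicate 1 and -0.07 without EA replicate 2.

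The glutamate genes gave 1 of 31 higher and 2 lower at an unadjusted p under 0.05, where 2.40% and 2.02% of all genes were, with a median of -0.13 (0.003 without NC replicate 3). Grin2d, an NMDA receptor subunit of interneurons and subcortical neurons, was at 29.6, 21.3 and 20.6 CPM in NC and 33.0, 42.4 and 37.4 CPM in EA (log2 fold change 0.68 ± 0.17, edgeR adjusted p = 0.960). The subunits Grin2a and Grin2b, which are abundant in forebrain neurons, had log2 fold changes of -0.70 and -0.48. Both were highest in NC replicate 3, at 64.5 and 78.2 CPM, the library with the highest cortical marker sum. Without that library the values were -0.41 and -0.31, and without EA replicate 2 that of Grin2a was -1.004. The part of cortical tissue in these values was not tested. Of 22 GABA genes, 1 was higher, the receptor subunit Gabra3, at 19.1 to 28.8 CPM in NC and 29.6 to 38.7 CPM in EA. The neuregulin receptor Erbb4 was at 23.5, 22.3 and 21.4 CPM in NC and 26.7, 25.02 and 23.5 CPM in EA, with a log2 fold change of 0.18 ± 0.11 (0.12 without EA replicate 1), and 0 of 11 genes of that pathway had an unadjusted p under 0.05. In the arachidonic acid and endocannabinoid list, Cnr1, the cannabinoid receptor, and Ptgs2, the inducible cyclooxygenase, were the 2 of 25 that were lower (log2 fold changes -0.87 and -0.44, the former -0.56 without NC replicate 1).

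Among glia, the astrocyte filament gene Gfap was at 583, 914 and 541 CPM in NC and 365, 416 and 468 CPM in EA (log2 fold change -0.69 ± 0.22, edgeR adjusted p = 0.960). The groups did not overlap, but it was the 1 lower member of 10 astrocyte markers (2.02% of all genes lower, 5.37% lower without overlap), whose median was -0.03. Without NC replicate 2 the Gfap value was -0.41. The microglial genes C1qb, a complement component, and Ctss, a lysosomal protease, were 2 of 11 higher at an unadjusted p under 0.05 (2.40% of all genes), and without EA replicate 1, NC replicate 2 or NC replicate 3 the count was 1. C1qb was at 45.5, 38.4 and 31.1 CPM in NC and 69.1, 53.6 and 50.1 CPM in EA. The microglial median was 0.23 (0.11 without NC replicate 3), with 9 of 11 positive. Of 24 genes of inflammation and the acute phase tested, 1 was higher (Socs3, a feedback inhibitor of cytokine signalling, log2 fold change 1.38 ± 0.42) and 1 lower (complement C3, -0.85 ± 0.36).

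Other lists are given by their counts. Of 19 clock genes, Per3 was higher (0.41 ± 0.12) and Hlf lower (-0.55 ± 0.22, or -0.32 without NC replicate 3), and the Hlf value differed from the 0.79 of the PVN (interaction unadjusted p = 0.0023, adjusted p = 0.742). Of 86 cytosolic ribosomal protein genes, 3 were higher (Rps19l2, Rpl37 and Rpl41) and 0 lower at an unadjusted p under 0.05, where 2.40% and 2.02% of all genes were, with a median of -0.03. Heat shock and chaperone genes had a median of -0.01, with Dnajb5 the 1 of 21 lower. The 13 mitochondrial genome genes were all negative (median -0.40, but -0.02 without EA replicate 2), and 0 had an unadjusted p under 0.05. The plot of gene lists places all of these beside the median of all genes.

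**Figure D5:**
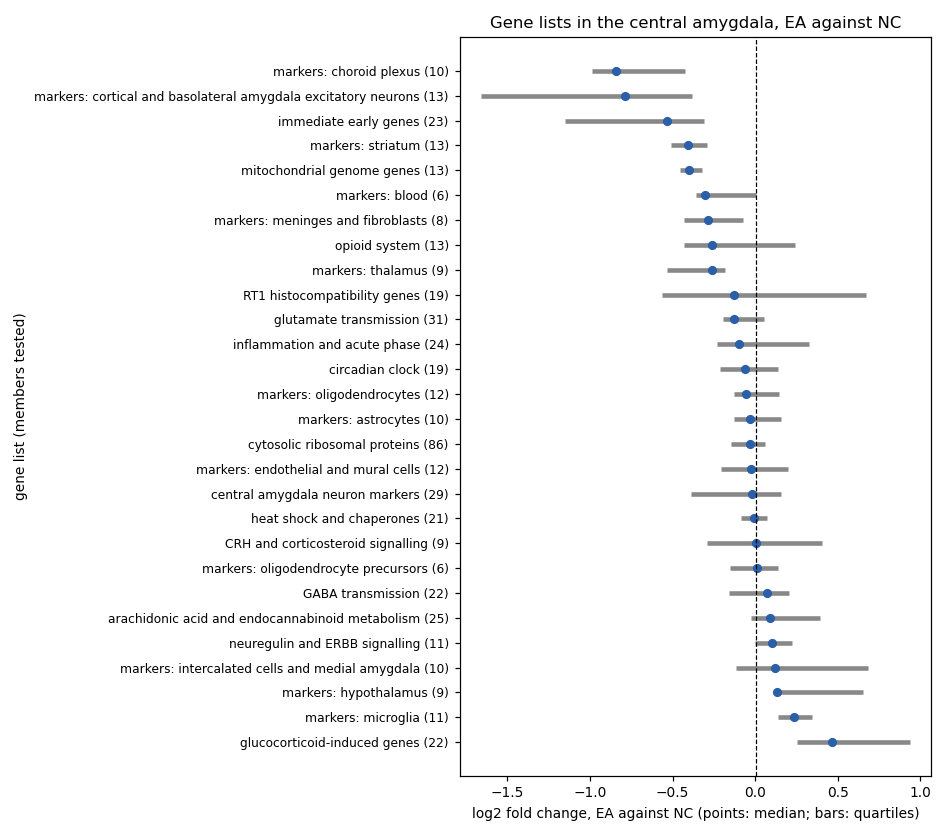
Median (points) and quartiles (bars) of the log2 fold change of EA against NC in the CEA for 28 gene lists, with the number of members tested in brackets. The dashed line is the median of all 16505 genes (0.01), and lists of the immediate early genes (-0.53) and the glucocorticoid-induced genes (0.46) lie on opposite sides of it.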

How the data were processed

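Strand-specific mRNA libraries were aligned by the authors with HISAT2 and counted per gene with featureCounts (versions not given in the sources used here), and the deposited table holds raw counts for 35032 genes in 24 libraries. Sources differ on the build: mRatBN7.2 in the methods, GRCh38 and hg38 in the submitters' processing notes, none in the table. The table reaches position 282724300 on chromosome 1, beyond the mRatBN7.2 chromosome, so no genome was matched to it. A stray second header line exchanges CEA EA replicates 2 and 3; numbers follow the first header.

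Genes were filtered with filterByExpr, scaled by TMM and tested in R 4.3.3 by quasi-likelihood (edgeR 4.0.16), two-sided, with Benjamini-Hochberg adjustment over all genes tested in a comparison. DESeq2 1.42.0 was an alternative, with RLE size factors, no filter on low counts, all groups in 1 fit, a replicate block, no mitochondrial genes and leaving out each library. The region difference was an interaction term over the EA and NC libraries of both regions. CPM were scaled over all 24 libraries. Each of the 6 libraries held 13838691 to 18607032 counts, so 3 counts, the limit that a count of 0 allows, equal 0.170 to 0.216 CPM. Intervals and limits cover counting error only. The scripts were tested on simulated data.

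Groups came from the sample titles. No label ties a replicate number to an animal shared by groups, and no libraries were identical (0 pairs). The methods state that a single rat gave too little tissue, so that samples came from different animals of a batch collected together, and give 12 rats for the 24 libraries. Which libraries share a rat is not stated. p-values measure the spread between the 3 libraries of a group. Named genes were those at adjusted p under 0.05; in each direction the 10 non-overlapping genes of at least 1 CPM with the smallest p and the 5 with the largest fold; up to 4 members of each list; and Crh, Fkbp5, Oprm1, Penk, Prkcd, Sst, Erbb4 and Fos. Members and lists were chosen with earlier results of these data known. Some listed genes were not analysed here, and an item of the lists is not reported here.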

Additional observations from a re-analysis of the deposited data

How the results depend on the processing

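The count of genes at adjusted p under 0.05 between EA and NC was 1, and it was 36 with DESeq2, 2 with no filter on low counts, 0 with all groups in 1 fit and 0 to 3 when each library was left out (0 without EA replicate 1). At an unadjusted p the count was 729, and 414 (without NC replicate 3) to 1070 (without NC replicate 1) with a library left out. EA replicate 1 moved it to 467. For the interaction with the PVN, the adjusted count of 0 became 0 to 792 and the unadjusted count of 1125 became 628 to 3187, in both cases highest without PVN NC replicate 2, so these counts depend on that library. Without CEA NC replicate 1 the adjusted count was 8. The cause was not tested. Deviations of same-numbered libraries from their group means correlated at r 0.198, 0.0863 and -0.0834, and those of differently numbered libraries at r -0.247 to 0.197. From 3 libraries a group, these values cannot decide whether the numbers pair animals. With the replicate number as a block the adjusted count was 1, the unadjusted count 837 and the interaction count 1487, where the numbers may not match animals between regions.

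Of the gene fold changes under alternatives, 712 kept direction and side of the threshold, 28 passed it newly, mostly with DESeq2, and 2 lost it, both of LOC103690108 (11.57 in 1 fit and 11.59 without EA replicate 1). The Sst value of 0.06 turned to -0.0039 without EA replicate 1 and -0.14 without NC replicate 2, and was up to 0.28 with another library left out. Of list medians, 319 moved little and 16 moved beyond their spread. The median of mitochondrial genes could not be computed without those genes. Gene counts near the limit of 3 per library bound what can be read for Npas4, Mir132, Unc45b and RT1-CE10, among others.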

Other observations

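Further lists are given as values, to be read against the 2.40% of all genes that were higher and the 2.02% that were lower at an unadjusted edgeR p under 0.05. Esr1, the estrogen receptor of medial amygdala neurons, was the 1 of 10 markers of intercalated cells and medial amygdala that was higher at an unadjusted edgeR p under 0.05 (log2 fold change 0.93). The list median was 0.12, or 0.03 without EA replicate 3. Slc6a13, a GABA transporter of the meninges, was the 1 of 8 meningeal markers that was lower (log2 fold change -0.48), with 8 of 8 values negative. C1ql1 was the 1 of 6 oligodendrocyte precursor markers that was lower (log2 fold change -0.43), and 0 of 12 oligodendrocyte markers had an unadjusted edgeR p under 0.05 in either direction, as had 0 of 12 endothelial and mural markers and 0 of 6 blood markers. The choroid plexus median was -0.84, and 1.43 without NC replicate 2, the library with the highest Ttr, and -2.30 without EA replicate 1.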
